A study of Homo sapiens with 6 samples.

Results

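The PSG and CEACAM genes form one family on chromosome 19, and their RNA levels were described here in SK-Hep-1 cells with and without knockdown of the long non-coding RNA *RAB30-DT*. Members were all genes of the GENCODE Release 44 annotation, protein-coding or pseudogene, whose symbol is PSG with a number, with or without a final P, or begins with CEACAM. This rule took 35 of the 62700 genes in the data, 11 PSG genes and 24 CEACAM genes, of which 22 are protein-coding and 13 are pseudogenes. A further 2 entries, *CEACAM16-AS1* and a second entry named *CEACAM22P*, are annotated as long non-coding RNAs and were left out. The family was selected on the difference in TPM between knockdown and control cells, since *CEACAMP10* and *PSG5* were among the genes that rose most. That difference is therefore given below for the members as a description, with no p-value.

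SK-Hep-1 is an established human line that the study calls endothelial-derived. The data are 6 poly-A RNA–Seq libraries, 3 of control cells, whose titles name a control shRNA while their genotype label reads WT, and 3 of cells with shRNA knockdown of *RAB30-DT*. In the study, knockdown lines were made by lentiviral transduction of a pLKO.1 vector and puromycin selection, and the labels do not say which of its *RAB30-DT* shRNAs these libraries carry. Nothing in the labels says that the replicates were separate cultures, so p-values measure only the spread between these libraries, which may be technical. The values are TPM, a relative abundance corrected for transcript length, so levels of different genes can be set side by side, but the number of reads behind a value is unknown.

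CEACAM proteins are immunoglobulin-like molecules of the cell surface, among them the carcinoembryonic antigen CEACAM5 and the adhesion receptor CEACAM1. PSG proteins, the pregnancy-specific glycoproteins, are their secreted relatives, made in large amounts by the syncytiotrophoblast of the placenta and released into maternal blood. The PSG genes are closely similar tandem copies, and they lie within the larger run of CEACAM genes, with many pseudogenes among them.

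Between 20127 and 21675 genes were above 0 TPM in a library, and 14020 genes had a mean of at least 1 TPM and entered the test. *RAB30-DT* itself was at 14.5 ± 3.37 TPM (SD, n = 3) in control and 9.76 ± 2.88 TPM in knockdown cells. Knockdown replicate 1 was above control replicate 2, so the groups overlapped for the targeted RNA.

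The PSG genes share their sequence close to the transcription start, and the stretch is shown here because members that differ by few bases in it differed widely in level. For each of the 11 PSG genes, the 30 bases that best matched those just before the start of *PSG5* were read from hg38. The search covered 400 bases on each side of the annotated start. All are on the minus strand of chromosome 19 and printed 5′ to 3′. Capitals mark CCCCACCC or CCCCGCCC, GC-box-like motifs that were the only 2 searched for.
PSG5, chr19:43186537-43186566: tgtcctgggcctgaCCCCACCCatgagcct
PSG2, chr19:43082702-43082731: tgtcctgggcctgaCCCCACCCatgagcct
PSG10P, chr19:42855752-42855781: tgtcctgggcctaaCCCCACCCatgagcct
PSG7, chr19:42937209-42937238: tgtcctgggcctgaCCCCACCCatgagctt
PSG6, chr19:42917925-42917954: tgtcctgggcctgaCCCCGCCCatgagcct
PSG3, chr19:42740517-42740546: tgtcctgggcctgaCCCCGCCCatgaacct
PSG8, chr19:42765714-42765743: tgtcctgggcctgaCCCCGCCCatgaacct
PSG1, chr19:42879714-42879743: tgtcctgggcctgaccctgcccatgagctt
PSG4, chr19:43205669-43205698: tgtcctgggcctgaCCCCGCCCacgagctt
PSG9, chr19:43269564-43269593: tgtcctgggactgaCCCCGCCCatgagctt
PSG11, chr19:43026506-43026535: tgtcctcggcctgaccctgcccatgagctt
The stretch held CCCCACCC in 4 genes, CCCCGCCC in 5 and neither in 2, *PSG1* and *PSG11*. *PSG2* and *PSG5* had the same 30 bases, yet *PSG2* reached at most 0.26 TPM and *PSG5* at least 23.75 TPM in a knockdown library. *PSG10P*, the PSG pseudogene, differed from *PSG5* at 1 base of the stretch and was listed at 0 in all 6 libraries.

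The 250 bases before the transcription start are shown for *PSG5* and *CEACAMP10*, the members that rose most on the log2(TPM + 1) scale used below. They are from hg38, on the strand of the gene, with the same motifs in capitals. For *CEACAMP10* the start taken is that of its longest spliced transcript, while its canonical transcript starts at 43220871. TPM per gene do not show which start is used.
PSG5, chr19:43186537-43186786, minus strand: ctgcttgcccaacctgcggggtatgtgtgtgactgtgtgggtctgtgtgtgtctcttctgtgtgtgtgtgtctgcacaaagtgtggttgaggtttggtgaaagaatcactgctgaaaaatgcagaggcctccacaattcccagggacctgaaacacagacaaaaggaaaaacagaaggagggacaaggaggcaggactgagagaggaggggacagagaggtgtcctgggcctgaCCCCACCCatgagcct
CEACAMP10, chr19:43248647-43248896, minus strand: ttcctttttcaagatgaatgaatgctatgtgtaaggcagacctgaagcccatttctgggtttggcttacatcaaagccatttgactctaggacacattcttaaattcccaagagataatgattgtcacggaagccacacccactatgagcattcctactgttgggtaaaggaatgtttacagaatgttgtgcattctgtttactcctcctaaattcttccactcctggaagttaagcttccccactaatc
The window of *PSG5* held CCCCACCC once, and the window of *CEACAMP10* held neither motif. On either strand, CCCCACCC was found in the windows of 8 of 35 members (22.9%) and in 10.4% of 35116 promoters of the same length from RefSeq. CCCCGCCC was found in 9 of 35 members (25.7%) and in 21.8% of those promoters. In a global alignment with the window of *PSG5*, identity was 70.0% to 85.3% for 9 other PSG genes, 29.8% for *PSG10P*, 63.4% for *CEACAM8* and 40.1% to 47.8% for the other 23 CEACAM genes. *CEACAMP10*, at 42.9%, was within this last range. The last base of the 30-base stretch lay 1 or 2 bases before the annotated start in *PSG1*, *PSG2*, *PSG5* and *PSG7*. It lay 31 to 37 bases before it in *PSG3*, *PSG4*, *PSG6*, *PSG8*, *PSG9* and *PSG11*, and 133 bases before it in *PSG10P*. Windows were cut at the annotated start, so those of the PSG genes were shifted against one another. Identity after removing this shift was not computed.

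Of the 35 members, 13 were above 0 TPM in at least 1 library and 22 were listed at 0 in all 6. The 13 were 8 PSG genes and 5 CEACAM genes. Only 4 members, *PSG5*, *CEACAMP10*, *CEACAM19* and *CEACAM1*, had a mean of at least 1 TPM over the 6 libraries and passed the filter of the fit, and 31 did not. *CEACAM1* passed through 1 library alone. In all genes tested, 0.371% were called higher in knockdown cells with limma at an adjusted p under 0.05, and 0.67% lower. Among the members, 2 were called, *PSG5* and *CEACAMP10*, both higher, and these are the genes the family was chosen for. Calls of members, here and under the alternatives, describe the contrast used for the choice and are no independent support for it. *PSG5* was not called without control replicate 2, without any 1 of the knockdown libraries, with a pseudocount of 0.1, without a filter or with eBayes without trend, and *CEACAMP10* was not called without a filter. *CEACAM19* was called as well with a pseudocount of 5, with the GC trend removed, with eBayes without trend, with arrayWeights, with the replicate block and without control replicate 1 or 3. All 3 knockdown libraries were above all 3 control libraries in 9.89% of the genes tested and below them in 13.4%. The same held for 4 of the 35 members, *PSG5*, *CEACAMP10*, *CEACAM19* and, below the filter, *PSG7*, and no member had all knockdown libraries below.

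**Figure D1:**
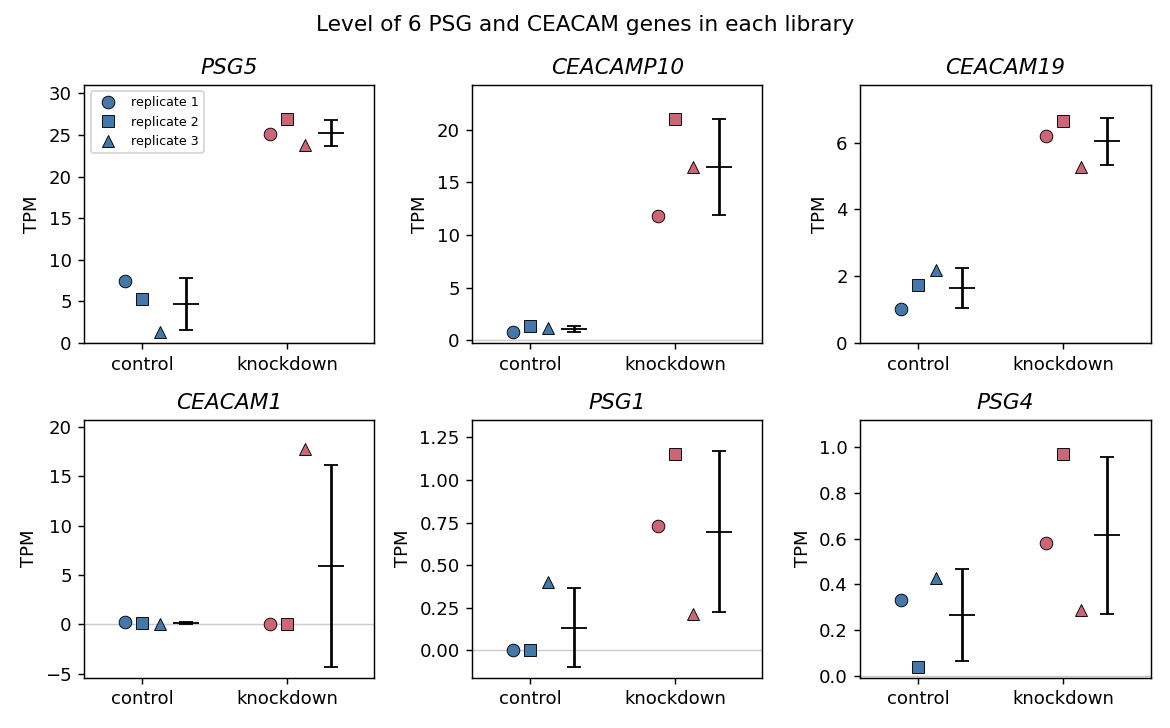
Each panel plots TPM on the vertical axis for 1 of the 6 members with a mean of at least 0.5 TPM in either group, with 1 point per library (3 control, 3 knockdown) and the mean ± SD as a bar. The groups do not overlap for PSG5, CEACAMP10 and CEACAM19, and the CEACAM1 panel rests on 1 knockdown library at 17.76 TPM.

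*PSG5* (ENSG00000204941.14, chr19:43166256-43186536, minus strand), which encodes a secreted pregnancy-specific glycoprotein, was the PSG gene with the highest level in each library. In order of replicate number, control cells held 7.48, 5.28 and 1.36 TPM and knockdown cells 25.13, 26.93 and 23.75 TPM, and the values of other genes are given in the same order. The control libraries were spread 5.50-fold from lowest to highest, and the knockdown libraries 1.13-fold. The lowest knockdown library was 3.18-fold above the highest control library. The mean was 4.71 ± 3.10 TPM in control and 25.3 ± 1.59 TPM in knockdown cells (SD, n = 3 each), a ratio of 5.37. On the log2(TPM + 1) scale, which understates changes of low genes, the difference was 2.39 (standard error 0.43), rank 21 from the highest of 14020 genes. With each library left out in turn it stayed between 1.85 and 2.77.

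The other PSG genes were low. *PSG1*, which encodes the glycoprotein of the family most studied for its activation of latent TGF-β, was at 0, 0 and 0.4 TPM in control and 0.73, 1.15 and 0.21 TPM in knockdown cells. Control replicate 3 was above knockdown replicate 3, so its groups overlapped. The means were 0.133 ± 0.231 TPM and 0.697 ± 0.471 TPM, 0.56 apart on the log2(TPM + 1) scale. *PSG4* was at 0.33, 0.04 and 0.43 TPM in control and 0.58, 0.97 and 0.29 TPM in knockdown cells, again with overlap. Its means were 0.267 ± 0.203 TPM and 0.613 ± 0.341 TPM, 0.34 apart on that scale. *PSG7* was listed at 0 in all 3 control libraries and at 0.13, 0.16 and 0.11 TPM in the knockdown libraries, so no fold is given. *PSG2* was listed at 0 in control and at 0.11, 0.26 and 0 TPM in knockdown cells. *PSG9* was at 0.14, 0 and 0 TPM in control and 0.14, 0.09 and 0.31 TPM in knockdown cells. *PSG6* and *PSG11* stayed at or below 0.1 TPM in all libraries, and *PSG3*, *PSG8* and *PSG10P* were listed at 0 throughout. Of the 7 PSG genes detected beside *PSG5*, 6 had a higher mean in knockdown cells and 1, *PSG11*, a lower one. All 7 were below the filter, and of the 14020 genes that passed it, 6489 had a log2 difference above 0. Together the 7 PSG genes summed to 0.47, 0.04 and 0.97 TPM in control and 1.69, 2.70 and 0.92 TPM in knockdown cells, so the sums overlapped between the groups. *PSG5* made up 94.1%, 99.2% and 58.4% of all PSG TPM in the control libraries and 93.7%, 90.9% and 96.3% in the knockdown libraries.

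*CEACAMP10* (ENSG00000241104.5, chr19:43211791-43248646, minus strand) is annotated as a pseudogene and had the widest difference of the family on the log2(TPM + 1) scale. It stood at 0.78, 1.33 and 1.16 TPM in control and 11.86, 21.01 and 16.51 TPM in knockdown cells. The lowest knockdown library was 8.92-fold above the highest control library. The mean was 1.09 ± 0.282 TPM in control and 16.5 ± 4.58 TPM in knockdown cells (SD, n = 3 each), a ratio of 15.1. The difference was 3.04 on the log2(TPM + 1) scale (standard error 0.26), rank 9 of 14020, and stayed between 2.85 and 3.24 with each library left out in turn.

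In control cells *CEACAMP10* and *PSG5* did not follow one another. *PSG5* was highest in control replicate 1, where *CEACAMP10* was lowest, and the ratio of *PSG5* to *CEACAMP10* in TPM was 9.59, 3.97 and 1.17 across the control libraries. In the knockdown libraries the ratio was 2.12, 1.28 and 1.44. Knockdown replicate 2 was the highest of its group for 10 of the 13 detected members, *PSG5*, *CEACAMP10* and *CEACAM19* included, and for 29.5% of all genes tested. The 2 sets differ, since only 4 of the 13 passed the filter. *PSG6*, *CEACAM20* and *CEACAM22P* counted at 0.11 TPM or less, with 0 in the other knockdown libraries. Knockdown replicate 2 also had the most genes above 0 TPM of all libraries, 21675.

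*CEACAMP10* shares sequence with a PSG gene, and reads from shared sequence can be given to either. Its longest spliced transcript has 9 exons, and exon 9, of 685 bases (chr19:43211791-43212475), is also an exon of *PSG9*. Of the 75-base windows of *CEACAMP10* transcripts, 41.5% occurred in another annotated gene, 612 of 1888 of them in *PSG9*, and 30.1% of the 150-base windows did. For *PSG5*, 8.97% of the 75-base and 1.57% of the 150-base windows were shared. Of its 4817 windows of 75 bases, 132 occurred in *PSG9*, 127 in *PSG3*, 105 in *PSG4* and 74 in *PSG8*. The level of *PSG9*, at most 0.31 TPM, is uncertain for the same reason. How the reads of exon 9, or of sequence shared among PSG genes, were divided was not tested.

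**Figure D2:**
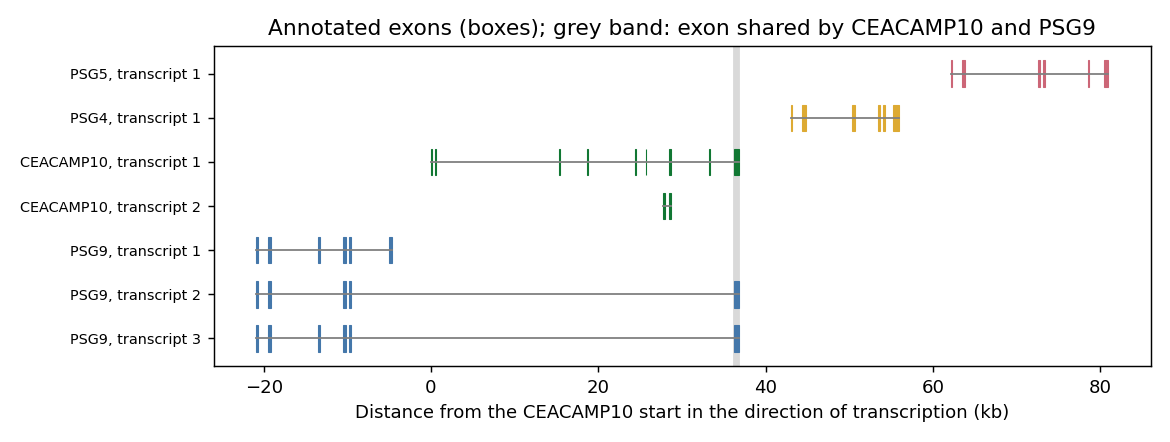
Exons (boxes) of PSG5, PSG4, CEACAMP10 and PSG9 transcripts are drawn to scale, with the horizontal axis giving the distance in kb from the CEACAMP10 start in the direction of transcription. The last of the 9 exons of CEACAMP10, at the right end of its row, falls on an exon of PSG9 (grey band), and the other 8 do not match one.

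**Figure D3:**
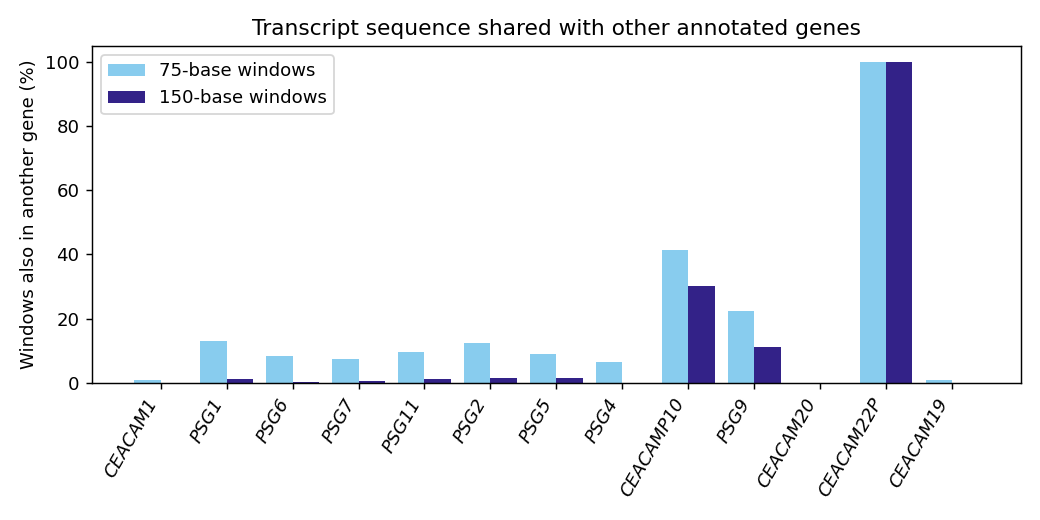
Bars give, for the 13 members above 0 TPM in any library, the percent of 75-base and 150-base transcript windows that occur unchanged in another annotated gene, on an axis from 0. CEACAMP10 has the highest share among the 4 members that passed the filter (41.5% and 30.1%), every window of CEACAM22P is shared, and CEACAM1 and CEACAM19 are below 1%.

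*CEACAM19* (ENSG00000186567.14, chr19:44662278-44684359, plus strand) encodes a membrane protein of the family and lies in a separate group of members. It stood at 1.01, 1.74 and 2.18 TPM in control and 6.19, 6.65 and 5.27 TPM in knockdown cells, and the groups did not overlap. The lowest knockdown library was 2.42-fold above the highest control library. The mean was 1.64 ± 0.591 TPM in control and 6.04 ± 0.703 TPM in knockdown cells (SD, n = 3 each), a ratio of 3.67. The difference was 1.43 on the log2(TPM + 1) scale (standard error 0.26), rank 134 of 14020, and between 1.25 and 1.58 with each library left out. *PVR*, the poliovirus receptor gene that overlaps *CEACAM19* on the same strand, was at 43.89, 45.25 and 45.38 TPM in control and 37.68, 41.77 and 39.17 TPM in knockdown cells (log2 difference −0.18, adjusted p = 0.585, limma). All 3 knockdown libraries lay below the control libraries for *PVR*, and 0.858% of the 75-base windows of *CEACAM19* were shared with it. *CEACAM16-AS1*, on the opposite strand across *CEACAM19*, was at 0.05, 0 and 0.4 TPM in control and 0.61, 0.31 and 0.82 TPM in knockdown cells, with overlap between the groups. How reads were divided among these genes was not tested.

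*CEACAM1* (ENSG00000079385.23, chr19:42507304-42561234, minus strand), which encodes an adhesion receptor with inhibitory signalling motifs in its cytoplasmic tail, rested on a single library. It stood at 0.25, 0.15 and 0.04 TPM in control and 0.05, 0 and 17.76 TPM in knockdown cells. Knockdown replicates 1 and 2 were at or below 0.05 TPM, and control replicates 1 and 2 were above both. The mean in knockdown cells was 5.94 ± 10.2 TPM against 0.147 ± 0.105 TPM in control cells, a difference of 1.24 on the log2(TPM + 1) scale with a standard error of 1.02. Without knockdown replicate 3 the gene did not pass the filter and its direction turned, with a knockdown mean of 0.025 TPM and a log2(TPM + 1) difference of −0.16. Genes at 5 TPM or more in 1 library and at most 0.5 TPM in each of the others numbered 17, 18 and 26 in the control libraries and 19, 25 and 21 in the knockdown libraries. Of the 21 in knockdown replicate 3, 2 were protein-coding, *CEACAM1* and *ENSG00000288529*. *LIPE-AS1*, on the opposite strand across *CEACAM1*, was at 0.03, 2.23 and 5.19 TPM in control and 7.48, 0.44 and 3.38 TPM in knockdown cells, so it was not highest where *CEACAM1* was. No strand marking is named for these libraries, and reads of overlapping genes on opposite strands cannot then be told apart.

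The other CEACAM genes were at or near 0. *CEACAM5*, the carcinoembryonic antigen gene, its relatives *CEACAM6*, *CEACAM7* and *CEACAM8*, the granulocyte receptor gene *CEACAM3*, *CEACAM4*, *CEACAM16*, which encodes an inner-ear matrix protein, *CEACAM18* and *CEACAM21* were listed at 0 in all 6 libraries. These are 9 of the 12 protein-coding CEACAM genes. *CEACAM20* was at 0.05, 0 and 0.33 TPM in control and 0, 0.11 and 0 TPM in knockdown cells. The pseudogene entry *CEACAM22P* was at 0, 0 and 0.48 TPM in control and 0, 0.05 and 0 TPM in knockdown cells. Every 75-base window of it also occurs in the second *CEACAM22P* entry, which was left out. That entry was at 0, 0 and 0.03 TPM in control and 0.13, 0.03 and 0.21 TPM in knockdown cells. Of the 13 pseudogenes of the family, 11 were listed at 0 throughout. Values this low can rest on very few reads, and the depth needed to place a limit on them is unknown.

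Ordered by their mean in knockdown cells, the members ran *PSG5*, *CEACAMP10*, *CEACAM19* and *CEACAM1*, followed by *PSG1* and *PSG4*. The ranges of neighbours in this order did not overlap between *PSG5* and *CEACAMP10* or between *CEACAMP10* and *CEACAM19*, and the range of *CEACAM1*, set by 1 library, overlapped those of *CEACAM19* and *PSG1*. *PSG1* and *PSG4* overlapped as well. In control cells the order began with *PSG5*, *CEACAM19* and *CEACAMP10*, each with a range that overlapped that of the next.

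Along chromosome 19 the members lie in 3 groups more than 1000000 bases apart. The first runs from 41549518 to 43304523 and holds 30 members, all 11 PSG genes included. The second, from 44501677 to 44710718, holds 4 members with *CEACAM19* among them, and the third is *CEACAM18* alone. *PSG5* and *CEACAMP10* are separated by 25.3 kb, with *PSG4* between them, and the start of *CEACAM19* lies 1476 kb from that of *PSG5*. *PSG4*, between the pair, stayed below 1 TPM in every library.

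On the log2(TPM + 1) scale, none of the tested genes around the members differed as much as *PSG5*, *CEACAMP10* or *CEACAM19*. Of the 51 tested genes that lie among the members or within 250 kb of a group, limma called 0 at an adjusted p under 0.05, against 1.04% of all genes tested, and 6 had an unadjusted p under 0.05, against 16.8% of all genes tested. On simulated data the fit recovered 6.0% of genes changed by a log2 of 1, so 0 calls cannot show that these genes were unchanged. The log2 differences of the 51 genes ran from −1.09 to 1.04 with a median of −0.16, beside −0.04 for all genes tested, with 18 above 0 and 33 below. The 1.04 was that of *APOC1*, a low gene beside the second group. It was at 0.97, 0 and 0.5 TPM in control and 1.78, 1.6 and 2.57 TPM in knockdown cells (adjusted p = 0.190, limma). All knockdown libraries lay above the control libraries for 4 of the 51 and below them for 4, beside 9.89% and 13.4% of all genes tested. The lowest adjusted p, 0.104, was that of *RPS19*, which encodes a protein of the small ribosomal subunit (log2 difference 0.58) and was chosen here after its value was seen. Over the 16 alternatives its adjusted p ran from 0.0170 to 0.348. From 42652368 to 43474953, a stretch of 822.6 kb that holds all 11 PSG genes and 8 CEACAM genes, no gene other than a member reached the filter, so no neighbour close to *PSG5* or *CEACAMP10* could be tested. Below the filter in this stretch, *CD177* was at 0, 0.26 and 0.05 TPM in control and 0.27, 0.61 and 0.55 TPM in knockdown cells, without overlap. The other non-members there overlapped between the groups or were listed at 0, and values this low can rest on very few reads. The nearest tested genes were *LIPE-AS1*, 513.9 kb from *PSG5* on one side (log2 difference 0.46, standard error 0.78, adjusted p = 0.810), and *PHLDB3*, 226.3 kb from *CEACAMP10* on the other. *PHLDB3* was at 5.27, 9.03 and 10.19 TPM in control and 7.19, 13.23 and 11.43 TPM in knockdown cells (log2 difference 0.35, standard error 0.30, adjusted p = 0.595). Next to *CEACAM1*, *ENSG00000269374*, at 21.6 kb, had a log2 difference of −0.63 (standard error 0.21, adjusted p = 0.195).

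**Figure D4:**
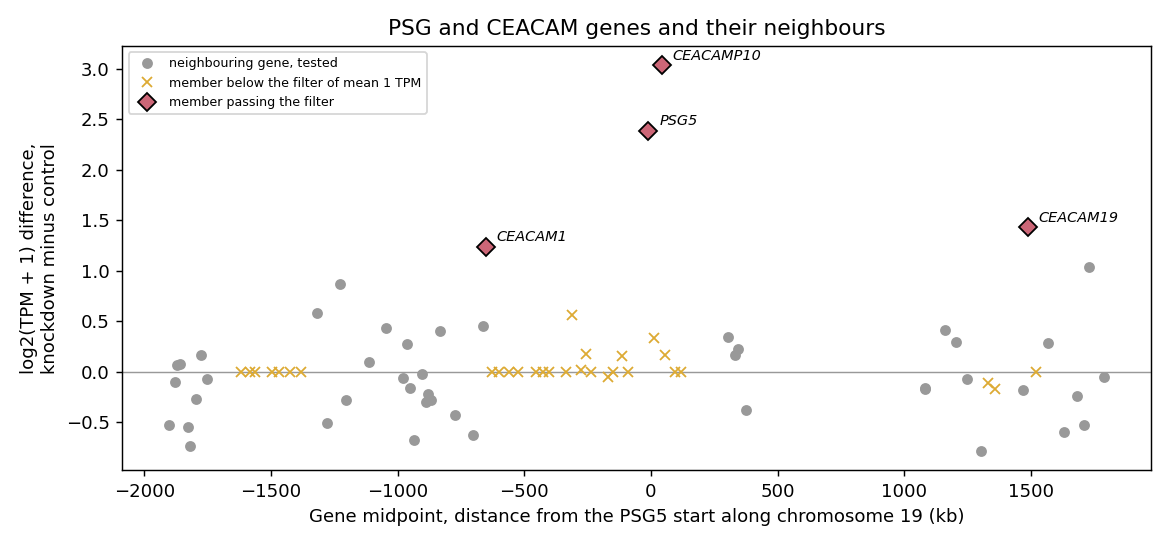
The vertical axis is the knockdown minus control difference on the log2(TPM + 1) scale and the horizontal axis the distance of each gene's midpoint from the PSG5 start in kb. Diamonds are the 4 members that passed the filter, crosses members below it and circles tested neighbours, none of which lies above 1.04. The third group, CEACAM18 and its neighbours, is outside the range drawn.

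Genes typical of the trophoblast, where PSG genes are usually transcribed, gave 11 tested genes of 36. limma called 0 of them, and 2 had an unadjusted p under 0.05, *PEG10* and *SDC1*. Their median log2 difference was −0.18, with 3 above 0 and 8 below, beside −0.04 for all genes. *PEG10*, an imprinted gene derived from a retrotransposon, was at 24.3 ± 2.29 TPM in control and 13.4 ± 1.72 TPM in knockdown cells (log2 difference −0.82, adjusted p = 0.0873). The highest levels were those of *SDC1*, which encodes syndecan-1, at 140 TPM in control and 82.5 TPM in knockdown cells (adjusted p = 0.228), and *KISS1*, which encodes kisspeptin, at 80.8 and 106 TPM (adjusted p = 0.560). Defining genes of the syncytiotrophoblast such as *CSH1*, *CSH2*, *GH2*, *INSL4* and *LGALS13* were listed at 0 in all libraries, as were 11 of the 36 genes in all. *INHA*, below the filter, was at 0.06, 0 and 0.29 TPM in control and 0.74, 1.14 and 0.6 TPM in knockdown cells. Its groups did not overlap, and those of *PEG10*, *GATA2* and *PAPPA2* were apart the other way, with *PAPPA2* at most 0.03 TPM. Control means of *TFAP2A*, *TFAP2C*, *GATA3* and *TEAD4* were 34.35, 8.98, 5.81 and 59.9 TPM. Their knockdown means were 39.2, 8.75, 6.83 and 42.9 TPM. *SDC1* is also on the list of partners below, and *TFAP2A* on that of regulators. The summed level of the trophoblast list was between 317 and 510 TPM in control and between 317 and 435 TPM in knockdown libraries.

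Of 37 genes for receptors, ligands and signalling partners studied with PSG or CEACAM proteins, 31 were tested and 2 were called, both lower, beside 0.67% of all genes tested. *CTNNB1*, which encodes β-catenin, was at 353.47, 358.78 and 328.89 TPM in control and 169.49, 218.66 and 192.24 TPM in knockdown cells. Its means were 347 ± 15.9 and 193 ± 24.6 TPM, and its log2 difference was −0.85 (standard error 0.14, adjusted p = 0.0422, limma). *SDC4*, which encodes the heparan sulfate proteoglycan syndecan-4, was at 51.61, 69.86 and 95.66 TPM in control and 26.26, 28.28 and 27.58 TPM in knockdown cells (log2 difference −1.33, standard error 0.23, adjusted p = 0.0447). Over the 16 alternatives the adjusted p ran from 0.00650 to 0.180 for *CTNNB1* and from 0.00179 to 0.188 for *SDC4*, with both lower in each. The list held 0 called genes without control replicate 2 or any 1 knockdown library, 1 without control replicate 3 and 5 without control replicate 1. A further 11 genes of the list had an unadjusted p under 0.05 without being called, where 16.8% of all genes tested had such a p. The list's median log2 difference was −0.23, with 12 above 0 and 19 below. The highest levels were those of *ANXA2*, which encodes annexin A2 (log2 difference −0.15, adjusted p = 0.503), and the calmodulin gene *CALM2* (0.07, adjusted p = 0.885).

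Of 25 genes for transcription factors studied at PSG or CEACAM promoters, 24 were tested and limma called 0, with 2 at an unadjusted p under 0.05, *IRF1* and *GABPB1*. *IRF1*, an interferon-regulated factor, had a log2 difference of −1.74 (adjusted p = 0.121) and *GABPB1*, a subunit of the GA-binding protein, one of −0.75 (adjusted p = 0.232). The median of the list was 0.02, with 13 above 0 and 11 below. *USF2* and *HIF1A* had the highest mean over all 6 libraries, at 95.1 and 86.2 TPM in control and 116 and 105 TPM in knockdown cells (adjusted p = 0.498 and 0.589).

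Markers of the cell types that these libraries could hold were read beside the members, and in bulk RNA fewer cells of a type and less RNA per cell cannot be told apart. Of 15 granulocyte genes, a usual source of *CEACAM3* and *CEACAM8* RNA, 7 were listed at 0, and the list summed to 0.69 to 1.21 TPM in control and 0.73 to 1.54 TPM in knockdown libraries. Of 15 endothelial genes, 3 were tested and 0 were called, with 0 at an unadjusted p under 0.05, and *KDR*, *ERG* and *MMRN1* were listed at 0 in all libraries. The defining endothelial genes *PECAM1* and *CDH5* were at or below 0.06 TPM and *VWF* at or below 0.36 TPM. The 3 tested were *ENG*, which encodes endoglin, at 75.3 TPM in control and 73.0 TPM in knockdown cells, *EGFL7*, at 39.1 and 25.5 TPM, and *ROBO4*, at 3.52 and 5.63 TPM. The endothelial list summed to 89.8 to 141 TPM in control and 89.8 to 125 TPM in knockdown libraries. Of 15 hepatocyte genes, 9 were listed at 0, *ALB*, *HNF4A* and *TTR* among them, and *SERPINA1* was the gene tested (22.0 and 33.5 TPM, adjusted p = 0.192). Of 13 epithelial genes, *CDH1* and *GRHL2* were listed at 0, and 5 were tested. Among these *KRT8* and *KRT18*, keratins of simple epithelia with many processed pseudogenes, were called lower, with log2 differences of −1.18 (adjusted p = 0.0354) and −1.03 (adjusted p = 0.0292, limma). Neither was called without control replicate 2 or any 1 knockdown library, and over the 16 alternatives the adjusted p reached 0.153 for both. *KRT19*, another such keratin, had a log2 difference of 0.84 (adjusted p = 0.0868). The epithelial list summed to 2655 to 3968 TPM in control and 1955 to 2309 TPM in knockdown libraries. Most of this was *KRT8*, *KRT18* and *KRT19*, with control means of 1413, 1402 and 482 TPM and knockdown means of 610, 676 and 854 TPM. The sum, mainly a reading of these keratins, was lower in the libraries where *PSG5*, *CEACAMP10* and *CEACAM19* were higher. Its part in their differences was not tested.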

How the data were processed

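RNA–Seq was analysed in 3 control and 3 *RAB30-DT* knockdown libraries of SK-Hep-1 cells. The files the authors deposited give TPM per gene to 2 decimals and no counts, so depth is unknown and only the 3 libraries of each group set the precision. The study's methods name fastp, STAR and RSEM with GENCODE Release 45, the submitters' processing notes name fastp, HISAT2 2.0.5 and hg38, and all 62700 gene identifiers were those of Release 44, used here for names and positions. Members and lists were chosen with earlier results of these data known.

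The scale of the fit was log2(TPM + 1), run with limma 3.58.1 (lmFit, eBayes with trend, 2-sided, no replicate block) under R 4.3.3. It took the 14020 genes whose mean reached 1 TPM, and a gene was called where the adjusted p (Benjamini–Hochberg, over all of them) was under 0.05. Members with a mean of at least 0.5 TPM in either group, called neighbours, the nearest tested neighbours of *PSG5*, *CEACAMP10* and *CEACAM1*, and up to 4 called and the 2 most abundant genes of each main list were named. Other genes named were chosen after their values were seen. Genes within 250 kb of the member groups were the neighbours.

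Windows of 75 and 150 bases were matched across GENCODE transcripts, and upstream windows were aligned with Biopython 1.88 in Python 3.11.15. *CEACAMP10* windows start from its longest spliced transcript and the others from the canonical one. Of the 35 members, 13 had an entry among the RefSeq promoters, so member windows were read from hg38; 1 further sequence is not reported here. The fit was tested on simulated data for the same comparison: of 200 changed genes, it recovered 6.0% at a log2 change of 1 among 13765 genes and 80.5% at 2 among 13763 genes. Alternatives were pseudocounts of 0.1 and 5, no filter or one of 5 TPM, quantile normalization, median-of-ratios scaling, removal of each library's GC trend, eBayes without trend, arrayWeights, a replicate block and each library left out in turn.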

Additional observations from a re-analysis of the deposited data

How the results depend on the processing

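*CEACAM1* turned lower in knockdown cells without knockdown replicate 3, where it was below the filter, and no other named member turned in the fits. The neighbours' count of 0 called genes became 4 with the GC trend removed and 5 with arrayWeights, and was 0 in each fit without 1 library. The trophoblast count of 0 became 1 and 2 in those fits, and was 0 to 1 without 1 library. The partners' count of 2 became 0 without a filter, with median-of-ratios scaling, with quantile normalization and with eBayes without trend, 7 with the GC trend removed, 11 with arrayWeights, and 0 to 5 without 1 library. It was 5 without control replicate 1, 1 without control replicate 3, and 0 without control replicate 2 or any knockdown replicate. The regulators' count of 0 became 2 with the GC trend removed, 1 with arrayWeights and 0 to 1 without 1 library. The median log2 difference of the members that passed the filter, 1.91, was 1.21 with a pseudocount of 5, 2.71 with a filter of at least 5 TPM, and 1.71 to 2.43 without 1 library, where *CEACAM1* left the filter without knockdown replicate 3. This median is a description of 4 members on the contrast that the family was chosen on. Over all genes 52 were called higher and 94 lower, 68 and 68 with median-of-ratios scaling, 78 and 83 with quantile normalization, 4 and 9 without a filter, 505 and 623 with the GC trend removed, 751 and 1185 with arrayWeights, 182 and 307 without control replicate 1, 6 and 6 without control replicate 2, and 66 and 94 without control replicate 3. The excess of lower genes turned without knockdown replicate 1 (10 higher, 8 lower) and without knockdown replicate 2 (9 higher, 6 lower), and was lost without knockdown replicate 3 (8 each). Why the counts moved was not tested.

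The replicate numbers are shared by the groups, and the main fit assumed no pairing. After subtracting group means, the correlation of same-numbered libraries was 0.410, 0.0359 and 0.279, positive in each. Replicate 1 was the highest of its group for 45.7% of the genes tested in control and 43.4% in knockdown cells. Whether same-numbered libraries share a batch was not tested. With a replicate block, 4 neighbours, 2 trophoblast, 6 partner and 1 regulator genes were called, *CEACAM19* was called beside *PSG5* and *CEACAMP10*, and 311 genes higher and 550 lower in all. TPM hold no depth, so members at or near 0 cannot be given a limit.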
